A study of Mus musculus with 8 samples.

Results

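The genes described here encode proteins that repackage the genome of the spermatid, except for Prm3, an acidic protein of the cytoplasm. Prm3 is counted below with the protamine and packaging genes because of its name. Among the others are the protamines Prm1 and Prm2, the transition proteins Tnp1 and Tnp2 and the spermatid linker histones Hils1 and H1fnt. The bromodomain protein Brdt and the chromatin remodeller Chd5 complete the list. All were taken by name and are 9 of the 54087 genes counted. RNA-seq was done on whole testes of male C57BL/6 mice that were WT/WT or KO/KO for Dnmt3a, a DNA methyltransferase that methylates germ-line DNA anew. The mice were 19 or 25 days old (days post partum, dpp), which gave 4 groups of 2 libraries: WT at 19 dpp, KO at 19 dpp, WT at 25 dpp and KO at 25 dpp. The labels name no further allele or agent, and they do not say which part of Dnmt3a the KO allele lacks or whether it was lost in all cells. They do not say that the libraries came from separate animals, so p-values measure only the spread between these libraries, which may be technical.

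During spermatogenesis the histones are replaced in part by testis variants, and in spermatids they become heavily acetylated. Brdt binds the acetylated histones through its bromodomains, Chd5 takes part in their removal, and the transition proteins occupy the DNA for a short time before the arginine-rich protamines replace them and compact the sperm nucleus. Transcription of the transition protein and protamine genes begins in round spermatids, and the mRNAs are stored and translated later, in elongating spermatids. Brdt is already transcribed in meiotic spermatocytes. The first wave of spermatogenesis runs through meiosis and reaches haploid spermatids at about the ages sampled.

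The libraries held 22515812 to 50445334 counts over genes. Of the 54087 genes, 23353 passed the filter on low counts and were tested, with all 9 spermatid chromatin genes among them. Prm1, Prm2, Prm3, Tnp1, Tnp2, Hils1 and H1fnt passed only through WT at 25 dpp, so these 7 had to differ from the other groups and the number called among them supports nothing by itself. Levels are given as CPM, counts scaled to the size of the library. For Dnmt3a the 19 dpp libraries gave 147 and 141 CPM (WT) and 114 and 112 CPM (KO), and those of 25 dpp 48.7 and 70.0 CPM (WT) and 76.8 and 67.2 CPM (KO). Without the position of the deletion these whole-gene counts do not check the genotype. Mitochondrial genes took 1.25% and 1.63% of gene counts in WT at 25 dpp, against 2.64% and 3.34% in KO at 25 dpp and 2.42% to 2.87% at 19 dpp. Their part in the results below was not tested.

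Since the study concerns a DNA methyltransferase, the CpG pairs near the start of each gene are shown before its counts. Methylation was not measured in the data used here. All 9 genes matched the RefSeq promoter windows of GRCm38.p6, which is the assembly of mm10, with H1fnt listed there as H1f7. Each window holds 300 bases, 250 before and 50 after the start. Upstream stretches of 160 bases, 5′ to 3′ on the strand of the gene, are printed below for both transition proteins, the protamines Prm1 and Prm2, and Brdt and Chd5, with each CG pair in capitals. They run from 193 to 34 bases before the RefSeq start, at chr16:10796857-10797016 (Prm1, minus strand), chr16:10792139-10792298 (Prm2, minus), chr1:73015933-73016092 (Tnp1, minus), chr16:10788689-10788848 (Tnp2, minus), chr5:107331001-107331160 (Brdt, plus) and chr4:152338458-152338617 (Chd5, plus). A longer Prm1 model of GENCODE M21 has exon sequence over 30 of the Prm1 bases.
Prm1: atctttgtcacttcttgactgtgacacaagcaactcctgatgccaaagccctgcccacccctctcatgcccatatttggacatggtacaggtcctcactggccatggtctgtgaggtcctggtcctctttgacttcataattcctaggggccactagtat
Prm2: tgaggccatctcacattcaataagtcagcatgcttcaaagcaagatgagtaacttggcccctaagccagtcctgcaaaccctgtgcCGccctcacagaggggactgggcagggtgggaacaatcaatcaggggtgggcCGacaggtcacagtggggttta
Tnp1: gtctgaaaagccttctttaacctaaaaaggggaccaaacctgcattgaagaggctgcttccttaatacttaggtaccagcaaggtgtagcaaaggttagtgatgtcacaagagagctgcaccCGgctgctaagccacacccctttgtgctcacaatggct
Tnp2: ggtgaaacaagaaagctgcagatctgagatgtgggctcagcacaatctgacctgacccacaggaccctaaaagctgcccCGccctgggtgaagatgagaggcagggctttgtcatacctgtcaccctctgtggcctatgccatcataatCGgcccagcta
Brdt: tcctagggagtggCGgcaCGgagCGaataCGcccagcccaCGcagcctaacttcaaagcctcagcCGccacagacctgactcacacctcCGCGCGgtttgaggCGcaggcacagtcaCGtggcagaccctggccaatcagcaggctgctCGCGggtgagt
Chd5: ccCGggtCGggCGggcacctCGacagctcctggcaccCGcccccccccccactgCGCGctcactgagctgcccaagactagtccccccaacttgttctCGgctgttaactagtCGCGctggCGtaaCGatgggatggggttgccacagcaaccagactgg

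The capitals are dense in the Brdt and Chd5 stretches, which hold 13 and 12 CG pairs, and sparse in the others, which hold 0 to 2. Over the whole 300-base window Hils1 had 0 CG pairs, Prm1 had 1, Prm2 had 3, Prm3 and Tnp2 had 4 each, and Tnp1 and H1fnt had 6 each. Brdt had 23 pairs and Chd5 had 32. Among 27025 RefSeq promoter windows of the same length the median was 7 pairs, with quartiles of 3 and 21. Brdt had more CG pairs than 78.4% of these windows and Chd5 more than 90.8%. The 7 genes with counts almost only in WT at 25 dpp were thus at or below the median of promoters in CG pairs, and Brdt and Chd5 lay above its upper quartile.

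**Figure D1:**
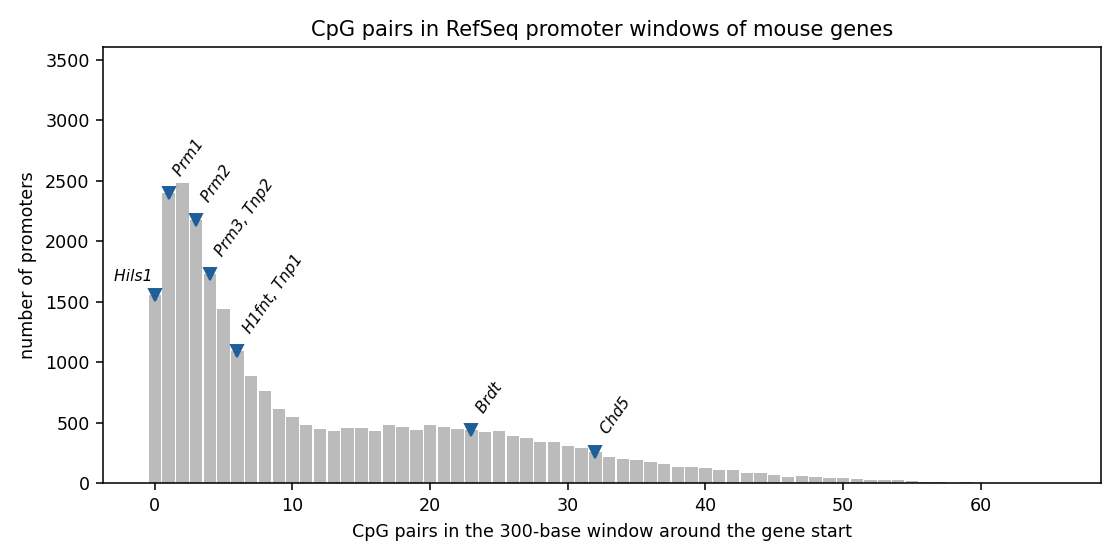
Number of RefSeq promoter windows (y axis) with each number of CpG pairs in the 300 bases around the gene start (x axis), as grey bars over 27025 windows, with triangles at the spermatid chromatin genes. The 7 packaging and linker histone genes sit between 0 and 6 pairs, and Brdt and Chd5 at 23 and 32.

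Crem, an activator of spermatid genes, binds cAMP response elements, so the windows were searched for TGANNTCA, a palindromic spacing of the element's outer bases that reads the same on both strands. These letters occur in 14.3% of all windows. They were found in Prm1 as TGACTTCA at 64 bases before the start, in Prm3 as TGAGGTCA at 60, in Tnp1 as TGATGTCA at 94 and in Hils1 as TGAGGTCA at 7. In the printed Prm1 and Tnp1 stretches they stand in lower case. The letters TATAAA, searched on both strands, occur in 14.2% of windows and were found only in Prm2 among the 9 genes, as TTTATA at 31 bases before the start. A match is a description and not a bound site.

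Protamines are small arginine-rich proteins that hold sperm DNA in its final compact state. Prm1, Prm2, Prm3 and Tnp2 lie side by side on the minus strand of chromosome 16, within 8.889 kb in RefSeq. In GENCODE M21 on mm10, Tnp2 spans 10787936 to 10788660, Prm3 10790505 to 10790914, Prm2 10791380 to 10796134 and Prm1 10796326 to 10805839. The Prm1 model overlaps the antisense gene Gm46563. The library kit keeps strand, but the strand setting of the counting is not given in the sources used here, so reads of Prm1 and of that antisense gene cannot be told apart.

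Prm1 had 11626 counts (317 CPM) in the first and 349 counts (10.2 CPM) in the second WT library at 25 dpp, and 0 counts in the other 6 libraries. Prm2, which is made as a precursor and then cleaved, had 18643 counts (508 CPM) and 598 counts (17.5 CPM) in the same libraries and 0 in the other 6. Prm3, an acidic protein of the spermatid cytoplasm despite its name, had 2285 counts (62.3 CPM) and 454 counts (13.3 CPM) there and 0 elsewhere. All 3 protamine genes were thus read only in WT at 25 dpp, and in each the second library was far below the first. A count of 0 allows up to 3 counts, which is 0.0811 to 0.126 CPM depending on the library, and these limits cover counting error only.

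The transition proteins occupy spermatid DNA between the histones and the protamines. Tnp2, in the same cluster, had 17165 counts (468 CPM) and 683 counts (20.0 CPM) in WT at 25 dpp and 0 counts in the other 6 libraries. Tnp1 lies apart, on the minus strand of chromosome 1 from 73015074 to 73015909, where it overlaps the antisense gene 1700027A15Rik. It had 14726 counts (401 CPM) and 698 counts (20.4 CPM) in WT at 25 dpp. It was the only packaging gene with counts in every library: 5 and 3 in WT at 19 dpp, 4 and 25 in KO at 19 dpp, and 5 and 2 in KO at 25 dpp. The 25 counts in the second KO library at 19 dpp are 0.709 CPM, with an exact 95% Poisson interval of 0.459 to 1.05 CPM for counting error only, above the 0.0710 to 0.168 CPM of the other 5 libraries outside WT at 25 dpp. The first KO library of that age, at 0.168 CPM, did not share this level.

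Hils1 and H1fnt are linker histones made in spermatids. Hils1, on the plus strand of chromosome 11 from 94967593 to 94968456, had 9772 counts (266 CPM) and 2346 counts (68.6 CPM) in WT at 25 dpp. It had 1 count in the first WT library at 19 dpp and 0 in the other 5. H1fnt, on the minus strand of chromosome 15 from 98255986 to 98257293, had 6183 counts (169 CPM) and 814 counts (23.8 CPM) in WT at 25 dpp and 0 elsewhere. Hils1 overlaps Sgca on the opposite strand. Sgca stood at 25.7 and 17.8 CPM in WT at 25 dpp and at 0.126 to 4.60 CPM in the other libraries.

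**Figure D2:**
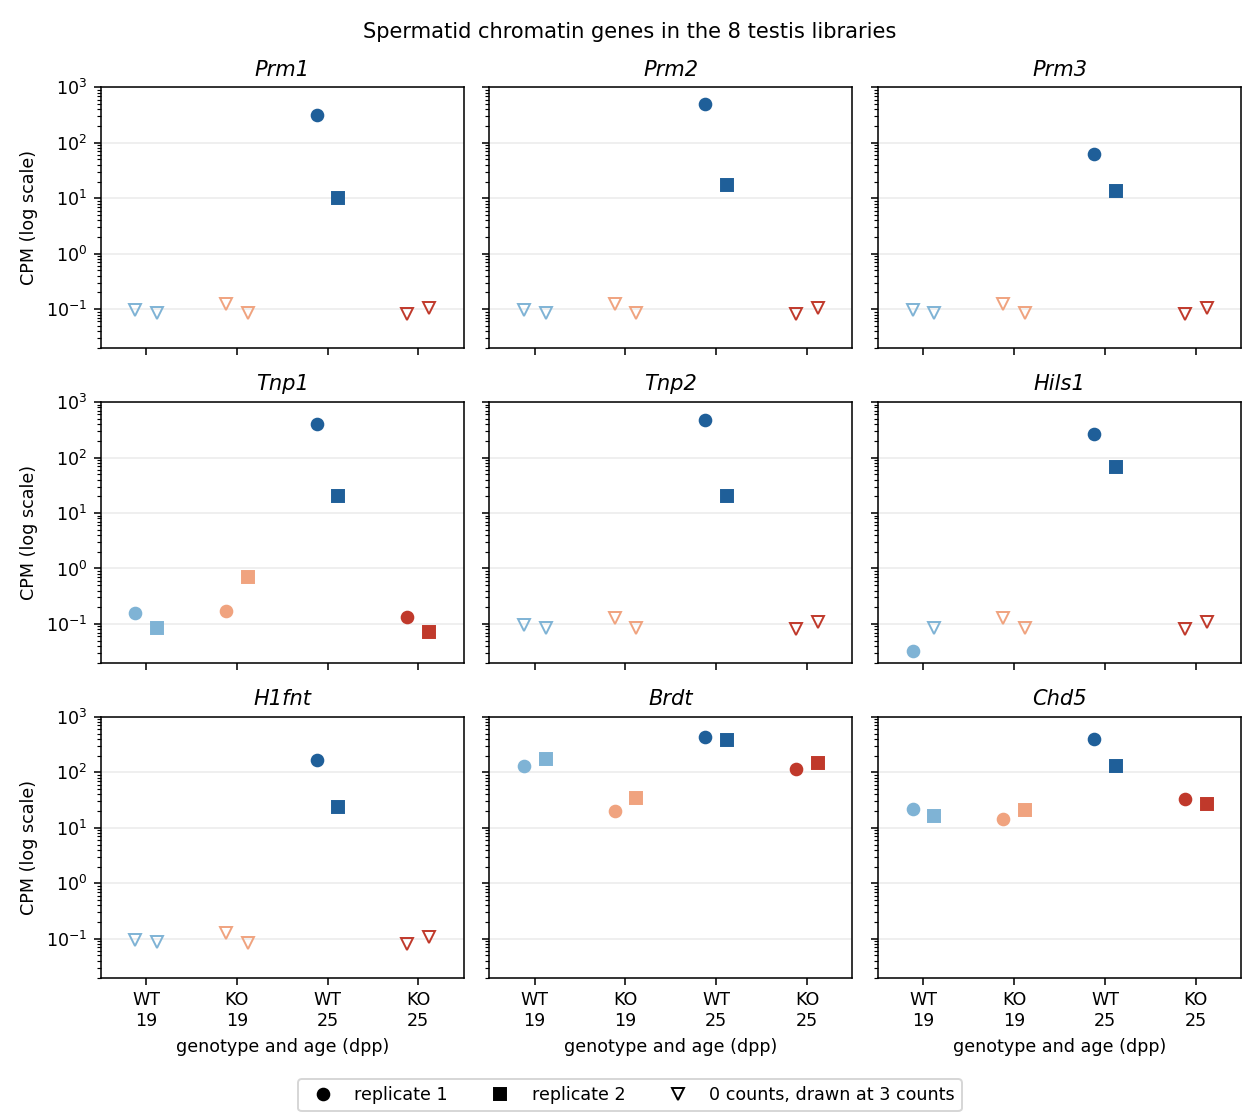
CPM on a log scale (y axis) of the 9 spermatid chromatin genes in each library, by genotype and age in dpp (x axis). Circles are replicate 1, squares replicate 2, and open triangles are libraries with 0 counts, drawn at the CPM of 3 counts, so the 1 count of Hils1 in WT at 19 dpp falls below them. Only WT at 25 dpp lies above 1 CPM for the packaging and linker histone genes, while Brdt and Chd5 are read in all 8 libraries.

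At 25 dpp every spermatid chromatin gene was lower in KO than in WT. Taking 3 counts in each KO library as the floor, Prm1 was at least 1744-fold lower, Prm2 at least 2803-fold, Prm3 at least 403-fold, Tnp2 at least 2601-fold, Hils1 at least 1786-fold and H1fnt at least 1026-fold. Against the second WT library alone, the bounds were 109, 186, 142, 213, 732 and 254-fold in the same order. The adjusted p of edgeR's quasi-likelihood test with Benjamini-Hochberg adjustment was 0.0289 for Prm1, 0.0256 for Prm2, 0.00666 for Prm3, 0.0226 for Tnp2, 0.00135 for Hils1 and 0.00933 for H1fnt. Tnp1, with counts in both groups, fell by a log2 value of 10.90 (SE 1.86, adjusted p = 0.00257). Without the first WT library it fell by 7.45. All 9 genes were called lower, where 37.4% of the genes tested were called lower and 26.1% higher at this age. Those of packaging and the linker histones had passed the filter only through WT at 25 dpp, so they had to differ. Leaving out either KO library at 25 dpp ended the calls of Prm1, Prm2 and Tnp2, with adjusted p of 0.0628 to 0.0865, though both KO libraries had 0 counts of each. Whole-testis RNA does not tell fewer cells of a type from less RNA per cell.

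Markers of several cell types differed at the same time. The summed level of 16 round spermatid markers was 3199 and 1532 CPM in WT at 25 dpp, but only 26.6 and 51.1 CPM in KO. In the first KO library Acrv1, Spaca7 and Lyzl6 were at 0 counts, and in the second Lyzl1 was. The sum of 12 elongating spermatid markers was 3940 and 993 CPM in WT, against 7.71 and 10.5 CPM in KO. The 12 Sertoli markers summed to 1955 and 2487 CPM in WT, against 6642 and 5701 CPM in KO. Before the spermatid stage, 10 markers of pachytene to secondary spermatocytes, which include Tbpl1 and Piwil1 of the lists described further on, summed to 9877 and 7621 CPM in WT but 519 and 1056 CPM in KO, and all 10 were called lower. The 10 early prophase markers summed to 2823 and 2927 CPM in WT against 2119 and 2856 CPM in KO. Among somatic cells besides Sertoli cells, the 8 Leydig markers summed to 342 and 512 CPM in WT against 33.3 and 71.9 CPM in KO. Of these 8, 4 were called lower, where 37.4% of the genes tested were. Of 5 markers each, endothelial cells had 1 called lower, and peritubular myoid cells and macrophages had no call. In undifferentiated spermatogonia 7 of 8 markers were called higher, at sums of 174 and 206 CPM in WT against 309 and 296 in KO. In differentiating spermatogonia 5 of 6 were called higher. Their summed level was nevertheless lower in KO, at 1043 and 786 CPM in WT against 352 and 360 CPM in KO. The remaining 1 of each list was called lower, and 26.1% of the genes tested were called higher. The part of these markers in the fall of the packaging genes was not tested.

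At 19 dpp there was little to compare in the packaging genes. Prm1, Prm2, Prm3, Tnp2, Hils1 and H1fnt were at or under the floor in both genotypes, and no fold is given for them. Tnp1 was 1.93 higher in KO on the log2 scale (SE 2.25, adjusted p = 0.593), a difference carried by the second KO library. At this age the round spermatid markers summed to 26.4 and 95.4 CPM in the WT libraries and to 9.34 and 10.7 CPM in those of KO, far under the sums of WT at 25 dpp.

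In WT the genes rose between the ages. With the same floor, Prm1 was at least 1793-fold higher at 25 than at 19 dpp, Prm2 at least 2881-fold, Prm3 at least 414-fold, Tnp2 at least 2674-fold and H1fnt at least 1054-fold. Tnp1 rose by a log2 value of 10.72 (SE 1.83, adjusted p = 0.00329). All 9 were called higher, where 34.9% of the genes tested were. The packaging and linker histone genes among them passed the filter only through WT at 25 dpp, so they had to differ. This comparison uses the same WT libraries at 25 dpp as the comparison with KO, so the pair of results is not independent. In KO no packaging or linker histone gene rose: Prm1, Prm2, Prm3, Tnp2, Hils1 and H1fnt had 0 counts at both ages, and Tnp1 differed by -2.11 (SE 2.31, adjusted p = 0.574) by edgeR's quasi-likelihood test. The genes together took 0.0164% and 0.0184% of gene counts in KO at 25 dpp, close to the 0.0177% and 0.0209% of WT at 19 dpp. That share was 0.220% and 0.0579% in WT at 25 dpp and 0.00367% and 0.00590% in KO at 19 dpp. Most of it outside WT at 25 dpp was Brdt and Chd5.

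The WT libraries of 25 dpp differed from each other in most of these genes, and in Prm1, Prm2, Tnp1 and Tnp2 by more than in nearly all other genes. Brdt was 1.13 times as high in the first as in the second library, Chd5 3.02, Hils1 3.88, Prm3 4.69, H1fnt 7.08, Tnp1 19.7, Tnp2 23.4, Prm2 29.1 and Prm1 31.1 times. The median of this ratio was 1.02 over the 11456 genes with a mean of at least 10 CPM in the group. Prm1 had the highest ratio of all of them, Prm2 the next, and Tnp2 and Tnp1 ranked 11 and 23. Round spermatid markers had a median ratio of 2.53 (1.34 to 3.91, 16 genes) and elongating spermatid markers of 4.27 (2.50 to 26.3, 12 genes). Pachytene and secondary spermatocyte markers had a median of 1.29 (0.955 to 1.98, 10 genes), early prophase markers 0.856 and Sertoli markers 0.799 (0.729 to 0.892, 12 genes). The ratio of 1 pair of libraries has no replicate check and no test. The SD exceeded the mean for 4 of the 5 protamine and transition protein genes: Prm1 was 164 ± 217 CPM (SD, n = 2), Prm2 263 ± 347, Tnp1 211 ± 269 and Tnp2 244 ± 317, while Prm3 was 37.8 ± 34.7.

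**Figure D3:**
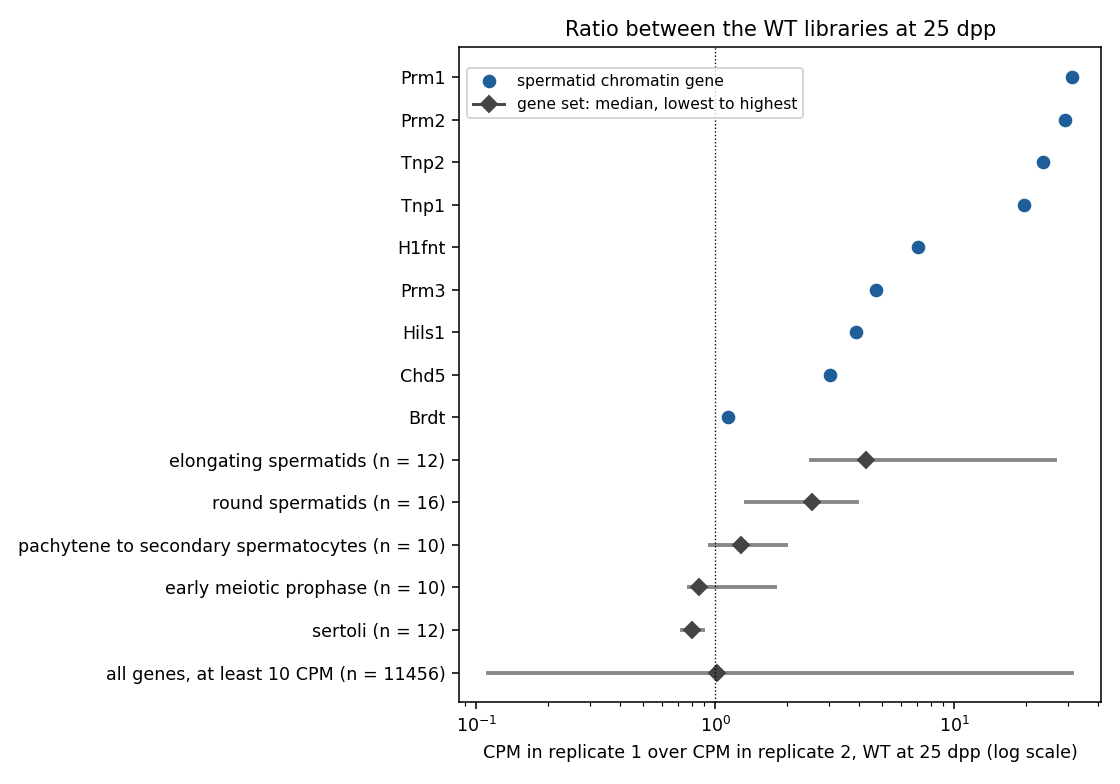
CPM in the first WT library at 25 dpp over CPM in the second (x axis, log scale) for each spermatid chromatin gene (circles) and for sets of marker genes (diamonds at the median, lines from lowest to highest). The packaging genes lie between 4.69 and 31.1, above the round spermatid median of 2.53, and Brdt lies at 1.13, near the all-gene median of 1.02.

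Levels of different genes were compared per kb of exon, as CPM per kb in WT at 25 dpp. The length was the union of exons over all GENCODE M21 models of a gene. Prm1 (571 bases) and Prm2 (894 bases) have 2 models each, and Tnp1 (437 bases) and Tnp2 (554 bases) have 1 each. The order under other choices of length was not tested. In the first library the order was Tnp1 (919), Tnp2 (845), Prm2 (569), Prm1 (555), Hils1 (308), Prm3 (152), H1fnt (129), Brdt (85.9) and Chd5 (41.6). In the second it was Hils1 (79.4), Brdt (75.9), Tnp1 (46.7), Tnp2 (36.1), Prm3 (32.4), Prm2 (19.6), H1fnt (18.2), Prm1 (17.9) and Chd5 (13.8). Both libraries put Tnp1 above Tnp2 and Chd5 last. The place of Hils1 and Brdt relative to the transition proteins and protamines changed between them. So did that of Prm3 relative to Prm1 and Prm2, and that of H1fnt relative to Prm1. The mean order of these genes is thus not larger than the spread between libraries.

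Brdt and Chd5 behaved otherwise, as both were read at 19 dpp. Brdt, on the plus strand of chromosome 5 from 107331159 to 107387058, encodes the testis member of the BET family of acetyl-histone readers. At 19 dpp the WT libraries gave 133 and 174 CPM and the KO libraries 20.4 and 33.8 CPM, and the groups did not overlap. The WT libraries of 25 dpp gave 440 and 388 CPM and the KO libraries 117 and 146 CPM, again without overlap. KO at 25 dpp was thus near the level of WT at 19 dpp, which was 153 ± 29.1 CPM against 131 ± 20.7 CPM in KO at 25 dpp (SD, n = 2 each), a pair that was not tested.

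Brdt was 5.65-fold lower in KO at 19 dpp, a log2 change of -2.50 (SE 0.269, adjusted p = 0.00714, edgeR quasi-likelihood test). It was the only one of the 9 genes called in that comparison, where 13.2% of the genes tested were called lower. Without the first KO library of that age its log2 change was -2.18 with an adjusted p of 0.0800, so this call rests on that library. No gene of 25019 tested was then called at 19 dpp by edgeR's quasi-likelihood test, with 5256 at an unadjusted p under 0.05 and Brdt at the lowest adjusted p. Meiotic markers differed with Brdt at 19 dpp: 8 of 10 early prophase markers were called lower in KO, at sums of 1931 and 2295 CPM in WT against 393 and 723 CPM in KO, and 9 of 10 markers of pachytene to secondary spermatocytes, at 775 and 1965 CPM against 95.0 and 133 CPM, with Pgk2 at 0 counts in the first KO library. With all libraries, 2054 of the 23353 genes tested were called higher in KO at 19 dpp. Of the 12 Sertoli markers 9 were called higher, at 4369 and 3760 CPM against 7730 and 7000 CPM. Their part in the Brdt difference was not tested. At 25 dpp Brdt was 3.16-fold lower (log2 -1.66, SE 0.260, adjusted p = 0.00148), and this was called under all 17 alternatives, with values from -3.14 when scaled to Sertoli markers to -1.19 when scaled to total counts. The difference between the effects of KO at the ages was 0.84 (SE 0.360, adjusted p = 0.140), which did not pass, but was 1.39 with an adjusted p of 0.0167 under total-count scaling. Brdt rose with age in both genotypes, by 1.43 in WT (SE 0.258, adjusted p = 0.00322) and by 2.27 in KO (SE 0.267, adjusted p = 0.00731). It was the only one of the 9 genes called higher with age in KO, where 10.2% of the genes tested were. Without the first KO library at 19 dpp the rise in KO was 1.95 with an adjusted p of 0.0623.

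Chd5, on the plus strand of chromosome 4 from 152338651 to 152390194, encodes an ATP-dependent remodeller of the NuRD type. The WT libraries of 19 dpp gave 21.5 and 16.6 CPM and the KO libraries 14.1 and 21.1 CPM, and the groups overlapped. At 25 dpp the WT values were 399 and 132 CPM and the KO values 33.4 and 27.0 CPM, with no overlap. At 19 dpp the log2 difference was -0.11 (SE 0.493, adjusted p = 0.932), and it changed sign when the first library of either genotype was left out. At 25 dpp Chd5 was 8.78-fold lower in KO (log2 -3.13, SE 0.524, adjusted p = 0.00239, edgeR quasi-likelihood test), or lower by a log2 change of -2.05 without the first WT library. In WT it rose by 3.80 with age (SE 0.541, adjusted p = 0.00187), or by 2.74 without that library. In KO the difference with age was 0.78 (SE 0.493, adjusted p = 0.319).

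For Chd5 the effect of KO itself differed between the ages. Tnp1 was called as well, but it passed the filter only through WT at 25 dpp, so its call supports nothing by itself. The difference of the log2 changes, 25 dpp minus 19 dpp, was -3.02 for Chd5 (SE 0.705, adjusted p = 0.0310) and -12.82 for Tnp1 (SE 2.93, adjusted p = 0.0294), by the interaction term of the same edgeR quasi-likelihood test. These were the called genes among the 9, where 11.4% of the genes tested were called in this direction. Both calls were lost when any 1 of the 4 KO libraries was left out, with adjusted p of 0.0750 to 0.298, and that of Tnp1 also without the first WT library at 19 dpp (adjusted p = 0.0514). For the 6 genes at the floor in both groups of 19 dpp no such difference is given.

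**Figure D4:**
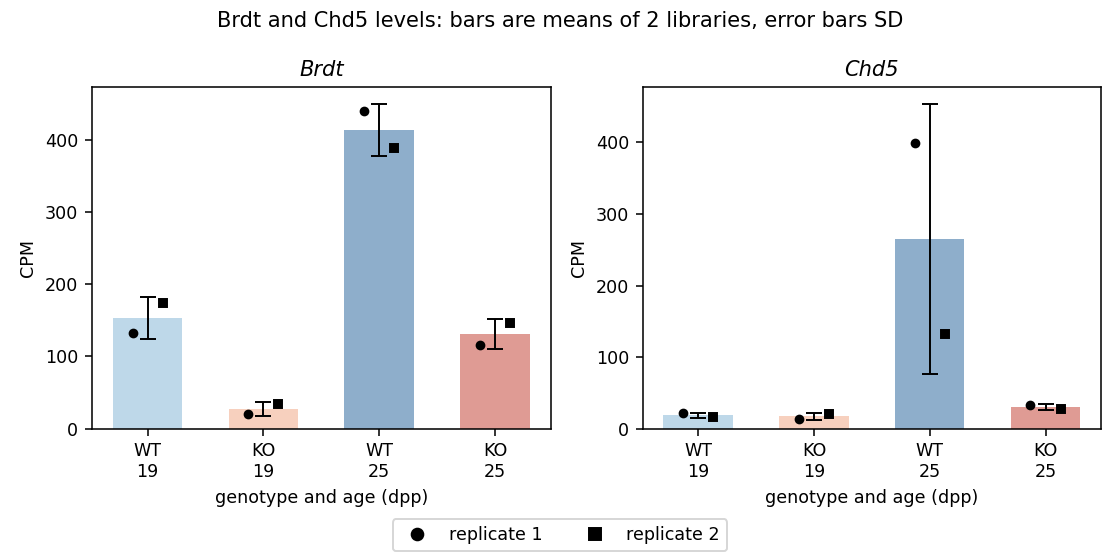
CPM of Brdt and Chd5 (y axis, linear) by genotype and age in dpp (x axis): bars are means of 2 libraries, error bars the SD, circles replicate 1 and squares replicate 2. Brdt is lower in KO at both ages and higher at 25 dpp in both genotypes, whereas Chd5 stands out only in WT at 25 dpp, with 399 and 132 CPM.

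Other genes of the histone-to-protamine exchange were taken from 4 lists. At 25 dpp the median log2 change over all genes tested was -0.12. Total-count scaling moved it by 0.47 and scaling to the sum of Sertoli markers by -1.48, so counts of small changes depend on the scaling. The split over all genes was 6096 higher to 8744 lower with the scaling used, 8995 to 7105 with total counts and 221 to 16550 with Sertoli markers.

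Genes that act on the transcription of packaging genes were mostly lower. Of 17 tested, 13 fell and 2 rose in KO at 25 dpp, where 37.4% of the genes tested were called lower and 26.1% higher. The list median was -2.60. Crem, the activator of many postmeiotic genes, had WT values of 241 and 170 CPM and KO values of 26.5 and 35.2 CPM. It fell by 2.73 (SE 0.325, adjusted p = 0.000611, edgeR quasi-likelihood test). Tbpl1, a TBP-like initiation factor needed for spermatid genes, fell by 2.67, and Tbp itself by 1.77 (adjusted p = 0.000308 for both). Papolb is in this list although, as the testis cytoplasmic poly(A) polymerase, it acts on mRNA and not on transcription itself. It fell by 5.14, from 861 and 552 CPM in WT to 12.7 and 27.3 CPM in KO. Kdm3a, a histone H3 lysine demethylase that acts at Prm1 and Tnp1, fell by 0.65 (SE 0.149, adjusted p = 0.00657), or by 0.18 without a call under total counts (adjusted p = 0.348). At 19 dpp 10 of the 17 were called, all lower, where 13.2% of the genes tested were called lower. That number was 0 without the first KO library, 6 without the second and up to 14 over the 17 alternatives. Among the 10 were Crem (-1.54, SE 0.317, adjusted p = 0.0169), Papolb (-3.41) and Kdm3a (-1.07).

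Most genes of mRNA storage, translation and protein processing were lower too. Of 18 tested, 15 fell and 1 rose at 25 dpp, where 37.4% of the genes tested were called lower and 26.1% higher. The list median was -2.31. Ybx2, the Y-box protein that holds stored germ-cell mRNAs, averaged 1887 ± 233 CPM in WT against 277 ± 62.0 CPM in KO (SD, n = 2) and fell by 2.77 (SE 0.477, adjusted p = 0.00268, edgeR quasi-likelihood test). Pabpc1, a poly(A)-binding protein, fell by 2.08, from 3839 ± 593 to 908 ± 121 CPM. Tarbp2, an RNA-binding protein required for protamine translation, fell by 1.92, Tdrd7, of the chromatoid body, by 2.26, and Ranbp17, an importin-family protein, by 2.32. At 19 dpp 11 of the 18 were called, all lower, against 13.2% of the genes tested. That number was 0 without the first KO library, 7 without the second and up to 16 over the 17 alternatives. Ybx2 had WT values of 264 and 565 CPM there and KO values of 16.3 and 34.6 CPM, a log2 change of -4.02 (SE 0.507, adjusted p = 0.00758).

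Histone variants and the acetylation and removal machinery were mixed. Of 14 histone variants tested, 9 fell and 3 rose at 25 dpp, with a median of -0.75. Over all genes tested 37.4% were called lower and 26.1% higher. H2afb3, a short H2A variant with near-identical copies whose reads could have been split, had WT values of 4.63 and 2.90 CPM and KO values of 0.0811 and 0.142 CPM. The replication-independent variants changed less: H2afz fell by 0.95 (SE 0.117, adjusted p = 0.000584), H2afy by 0.80 and H3f3a by 0.60, while H3f3b was at -0.47 and did not pass (adjusted p = 0.0981), though it passed in 5 of 17 alternatives, among them DESeq2 size factors (-0.58, adjusted p = 0.0407) and Sertoli scaling (-1.92, adjusted p = 0.00231). Under total counts H2afy (-0.34, adjusted p = 0.0761) and H3f3a (-0.13, adjusted p = 0.405) did not pass either. Of 28 genes of histone acetylation and removal, 11 fell and 7 rose, near the shares of 37.4% lower and 26.1% higher over all genes tested. Their median of -0.14 was next to the all-gene median. Under total counts the split was 7 lower to 13 higher, and under Sertoli scaling 25 lower and no call in the other direction. For the histone variants these splits were 5 lower to 3 higher and 12 lower to none higher.

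Named members of the acetylation list went both ways. Phf7, a histone ubiquitin ligase of early spermatids, fell by 3.75 (SE 0.479, adjusted p = 0.000944, edgeR quasi-likelihood test), from 2356 ± 578 to 175 ± 45.4 CPM. Psme4, the proteasome activator that degrades acetylated histones, fell by 2.42. The acetyltransferase Kat8 fell by 1.94, and Kat5, another, fell by 1.48. Trrap, a scaffold of acetyltransferase complexes, was higher by 0.96 (SE 0.159, adjusted p = 0.00158), but was at -0.50 under Sertoli scaling. At 19 dpp Phf7 was lower by 3.16 and Kat8 by 0.68, while Kat5 (-0.21, adjusted p = 0.347) and Psme4 (-0.51, adjusted p = 0.109) did not pass. Trrap was higher by 0.69 there (SE 0.158, adjusted p = 0.0218), and its values under other scalings at that age are not given here. Sertoli scaling moved the all-gene median by -0.86 at that age. Without the first KO library at 19 dpp none of the calls of the 4 lists at that age held, as for Brdt.

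**Figure D5:**
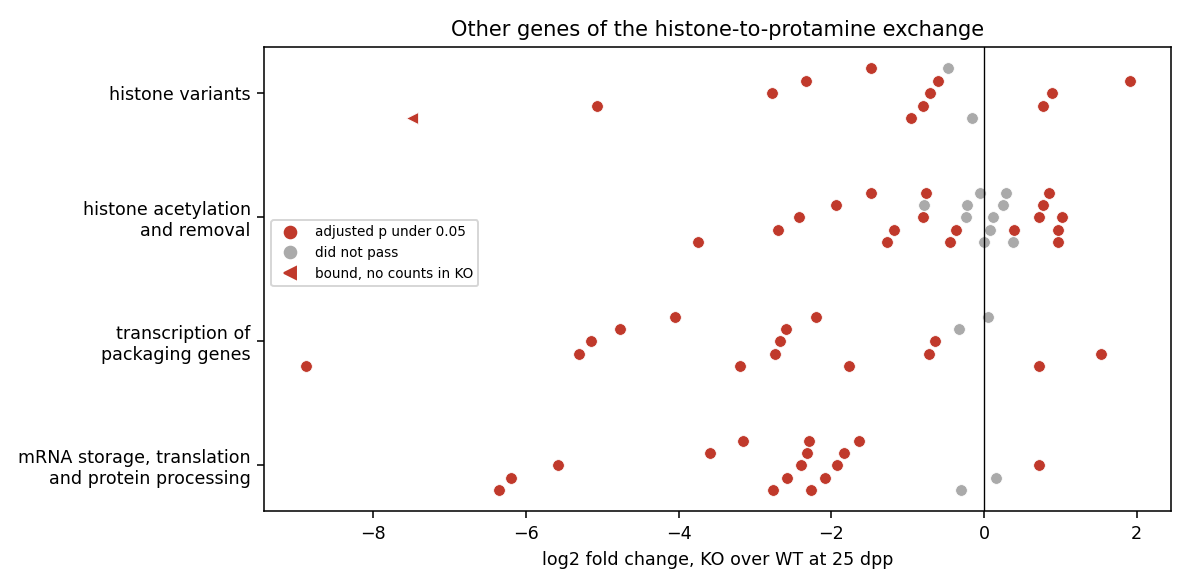
Log2 fold change of KO over WT at 25 dpp (x axis) for each tested gene of 4 lists (y axis; points are spread vertically within a list to separate them). Red points had an adjusted p under 0.05, grey points did not pass, and the left-pointing triangle is a bound for a gene without counts in KO. Most points of the transcription and mRNA lists lie left of 0, with medians of -2.60 and -2.31, and the acetylation points lie on both sides.

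The genes next to the protamine cluster had counts in all 8 libraries. Socs1, a cytokine signalling inhibitor, differed by -0.47 between KO and WT at 25 dpp (adjusted p = 0.312, edgeR quasi-likelihood test), at means of 2.49 and 3.45 CPM. Rmi2, of the BLM helicase complex, differed by -0.35 at 25 dpp (adjusted p = 0.435) and fell by 1.67 at 19 dpp (SE 0.395, adjusted p = 0.0235).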

How the data were processed

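RNA-seq of whole testis was analysed in 8 libraries, 2 in each of 4 groups. Per the labels' protocols, Trizol RNA went into stranded mRNA libraries. The authors deposited raw counts per gene, and per the submitters' processing notes reads were aligned to mm10 with STAR 2.7.0a and counted with featureCounts 1.5.1. The annotation, strand setting and handling of reads with several alignments are not given in the sources used here. Of 55292 entries, 1205 repeat families were left out of library sizes and tests. Counts were TMM-scaled, filtered with filterByExpr by group and fitted over all 8 libraries in edgeR 4.0.16 (R 4.3.3) with robust quasi-likelihood, 1 mean per group and 4 residual degrees of freedom. Benjamini-Hochberg adjustment ran over all genes tested, with a threshold of 0.05. The SE is the absolute log2 change over the square root of F. CPM values use the TMM-scaled library sizes. A group at 0 was given 3 counts per library for bounds. The procedure was tested on simulated data. These were not built with genes read in a single group or with the wide spread of the packaging genes. They therefore do not check the calls of those genes.

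The 9 genes and the lists were chosen with earlier results of these data known. From each list the 3 genes with the smallest p at 25 dpp and the 2 with the highest mean CPM were named. Likeness of pattern is the root mean square difference of centred log2(CPM + 0.5) over 8 libraries. Sequences and coordinates are from RefSeq GRCm38.p6 and GENCODE M21. H2al1b, H2al2a and H2al3 had no entry. Alternatives were other scalings, filters, DESeq2 1.42.0, voom of limma 3.58.1, a fit on just the libraries compared, a replicate block and leaving out each library. For the list counts they were chosen after seeing the data.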

Additional observations from a re-analysis of the deposited data

Results flagged for a closer look

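The effect of KO was called different between the ages for Tnp1 and Chd5, by the interaction term of edgeR's quasi-likelihood test with Benjamini-Hochberg adjustment. For Tnp1, which passed the filter only through WT at 25 dpp, this call supports nothing by itself. The log2 change at 25 dpp minus that at 19 dpp was -12.82 for Tnp1 (SE 2.93, adjusted p = 0.0294, from 0.000793 to 0.298 over the alternatives run with that test). It was -3.02 for Chd5 (SE 0.705, adjusted p = 0.0310, from 0.00123 to 0.131 likewise). The WT libraries at 25 dpp behind these values differ by 19.7 times for Tnp1 and 3.02 times for Chd5, and without the first of them the differences were -9.40 and -1.98.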

How the results depend on the processing

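Prm1, Prm2 and Tnp2 reached their adjusted p with 2 libraries against 2 whose WT values differ more than 20-fold, and the calls of the packaging genes depend on how the spread is modelled. Of the 9 genes, KO against WT at 25 dpp called 4 without a filter and 5 with limma-voom, and 6 to 9 with 1 library left out. The rise from 19 to 25 dpp in WT likewise gave 4, 5 and 6 to 9. KO against WT at 19 dpp gave 0 to 1 with 1 library left out, and 25 against 19 dpp in KO gave 0 to 1, or 2 when fitted on the compared libraries alone, with only 2 of the 9 genes tested there. The difference between the KO effects called 0 without a filter or with limma-voom, and 0 to 2 with 1 library left out. Chd5 at 19 dpp ranged from -0.45 to 0.15 with 1 library left out, above 0 without the first WT (0.09) or the first KO library. Under Sertoli scaling it was at -0.95 without a call, and Trrap changed sign at 25 dpp to -0.50. The cause of these changes was not tested. The other 70 counts of called genes stayed within 1.5 times. In the labels, same-numbered libraries share only a number. Their deviations from the group means correlated at -0.09 to 0.36 between groups, and whether they share a batch was not tested. The replicate block left the counts at 1, 9, 9, 1 and 2 and called H3f3b in addition (-0.49, adjusted p = 0.0179, edgeR). DESeq2's Wald test gave the same 5 counts.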

Other observations

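The genes nearest in pattern over the 8 libraries were found for each of the 9 genes. Cabs1 and Actl7a among them are also in the elongating and round spermatid marker lists. Likeness was the root mean square difference of centred log2(CPM + 0.5). The 10667 candidate genes had a mean of at least 10 CPM over the 8 libraries. Left out beforehand were the 9 genes, mitochondrial genes and genes with Gm, Rik, LOC or clone names, so a nearer gene may be among these. Likeness is a description with no test, since the libraries share their groups. Nearest to Prm1 were Sppl2c (0.40), Cabs1 (0.48) and Hmgb4 (0.55). Sppl2c, a testis intramembrane protease, was also nearest to Prm2 (0.57) and Tnp1 (0.44), and Actrt2, an actin-related protein of the sperm head, to Tnp2 (0.52) and H1fnt (0.08). Prm3 lay nearest to Tex29 (0.11), Spata31d1d (0.18) and Morn3 (0.19), and Hils1 to Allc (0.07), Prr30 (0.11) and Actl7a (0.13). Brdt lay nearest to Cdkl2 (0.10), Boll (0.15), a germ-cell RNA-binding protein of the DAZ family, and Naa11 (0.17), and Chd5 to Cnbd2 (0.26), Ribc1 (0.31) and Tes (0.32).

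Among the 9 genes themselves, Prm2 and Tnp2 were the closest pair, at 0.08, and Brdt and Prm2 lay 2.74 apart. Brdt and Chd5, the pair read at both ages, lay 1.06 apart, farther than Prm1 from Prm2 (0.31) or from Tnp1 (0.36).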
